A study of Mus musculus with 11 samples.

Results

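The 10 genes described here encode the NF-kappaB transcription factor subunits and a set of proteins whose genes NF-kappaB switches on. They were taken from the deposited expression table by symbol, as 10 of its 20640 genes, with earlier results of these data known. The subunits are Nfkb1, Rela, Relb and Nfkb2, the inhibitors and feedback proteins are Nfkbia, Nfkbiz, Tnfaip3 and Birc3, and the downstream targets are Icam1 and Tnfaip2. All 10 reached 1 RPKM in at least 2 libraries, the limit set for testing, as did 11568 genes in all. RPKM counts the reads of a gene per kilobase of its length and relative to all reads of the library, so levels can be compared between genes.

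NF-kappaB is a dimer of Rel family proteins that waits in the cytoplasm, bound to inhibitors of the IkB family. When a cytokine or a microbial product binds its receptor, the IKK kinases mark the inhibitor for destruction and the dimer enters the nucleus. The canonical route works through p50, made from Nfkb1, and RelA, and the alternative route through p52, made from Nfkb2, and RelB. Several of the genes it turns on are its own brakes, so the pathway is known for feedback loops. In muscle, NF-kappaB activity has been studied in inflammation, wasting and ageing.

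The cells came from limb muscle of Pax7-CreERT2;Rosa-YFP mice, in which tamoxifen lets a Cre recombinase driven from Pax7 turn on YFP in muscle stem cells and in all their progeny. All groups carried both alleles and were given tamoxifen by mouth for 5 days at 12 to 14 weeks of age. YFP+ cells without the surface markers Sca-1, CD31 and CD45 were sorted and their RNA sequenced in bulk in 11 libraries. The middle-aged group (3 libraries, no VCAM1 gate named) came from mice whose age is given as 10 to 14 months in the sample labels and as 12 to 14 months in the extraction protocol. Mice over 28 months gave 3 geriatric groups, divided by the adhesion molecule VCAM1 on the cell surface into a high, a low and a negative gate with 3, 2 and 3 libraries. Titles of the samples give these names for the gates, while the study design describes 3 gates as High, Mid and Low/-, and how these names match those of the titles was not given in the sources used here. Middle-aged YFP+ cells served to place the gates. Age, gating and the time since labelling all differ between the middle-aged group and the others, and cannot be told apart. The labels do not say that libraries came from separate animals, and gates with the same replicate number may share them. The p-values therefore measure only the spread between these samples, and the 8 geriatric libraries may not be independent.

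The libraries hold an estimated 19.9 to 29.9 Mreads (M for mega). The summed RPKM of 9 muscle stem cell markers was 2544 to 3419 in middle-aged and 1748 to 3414 in VCAM1-high libraries. It was 1801 to 2150 in VCAM1-low and 1355 to 2033 in VCAM1-negative, so these markers were detected in every library. Most of the sum was Chodl (449 to 1719 RPKM) and Sdc4 (701 to 1249), while Pax7 read 1.71 to 7.85. None of the 9 was higher in fitted value in the mean of the 3 geriatric gates than in middle-aged (median log2 fold change -0.75). Calcr and Itga7 were lower at an adjusted p under 0.05 in limma, as were 7.81% of all genes. The part of this in the comparisons with middle-aged was not tested. The number-3 libraries of the VCAM1-high and VCAM1-negative groups stood apart from the other geriatric libraries for several of the 10 genes, and results that rest on them are given with and without them. Other cell types were also detected. The sum of 10 macrophage markers ran from 23.7 to 163 in middle-aged and from 33.1 to 979 across geriatric libraries, with the highest value in VCAM1-high number 3, and that of 9 endothelial markers from 19.3 to 312 and from 17.6 to 157. In bulk RNA, fewer cells that use a gene and less of its RNA in each cell cannot be told apart.

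The promoters of the genes that the results turn on are printed here because these genes rose or moved together and are known targets of NF-kappaB. Each run is the 250 bases before the transcription start, read 5′ to 3′ on the strand of the gene, from RefSeq on GRCm38.p6, which is an older build than the GRCm39 of the expression table. Capitals mark matches to the NF-kappaB consensus on either strand. For Nfkb2, the start used is the most upstream of 3 (chr19:46304487-46304736, plus strand), and for Tnfaip3 the more upstream of 2 (chr10:19015411-19015660, minus strand). The others are Nfkbia (chr12:55492648-55492897, minus strand), Tnfaip2 (chr12:111442411-111442660, plus strand) and Icam1 (chr9:21015690-21015939, plus strand).
Nfkb2: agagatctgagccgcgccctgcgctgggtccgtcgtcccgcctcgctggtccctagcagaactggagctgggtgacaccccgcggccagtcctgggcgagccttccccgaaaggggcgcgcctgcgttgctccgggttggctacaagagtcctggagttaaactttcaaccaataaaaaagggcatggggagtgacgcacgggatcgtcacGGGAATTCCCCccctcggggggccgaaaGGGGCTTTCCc
Nfkbia: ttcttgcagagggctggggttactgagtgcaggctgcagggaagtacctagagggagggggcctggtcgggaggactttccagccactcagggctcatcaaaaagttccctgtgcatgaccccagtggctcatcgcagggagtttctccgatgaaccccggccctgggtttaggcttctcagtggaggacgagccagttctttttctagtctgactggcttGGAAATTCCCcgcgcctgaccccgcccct
Tnfaip3: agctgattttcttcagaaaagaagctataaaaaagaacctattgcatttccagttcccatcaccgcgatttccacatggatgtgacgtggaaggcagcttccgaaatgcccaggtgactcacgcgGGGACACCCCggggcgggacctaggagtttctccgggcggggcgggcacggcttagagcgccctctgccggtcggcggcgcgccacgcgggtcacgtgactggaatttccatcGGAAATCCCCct
Tnfaip2: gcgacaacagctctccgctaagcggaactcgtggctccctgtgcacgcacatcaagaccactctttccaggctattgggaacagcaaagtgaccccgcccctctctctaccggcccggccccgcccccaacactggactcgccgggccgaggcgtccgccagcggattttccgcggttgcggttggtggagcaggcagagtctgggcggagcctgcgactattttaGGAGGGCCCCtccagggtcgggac
Icam1: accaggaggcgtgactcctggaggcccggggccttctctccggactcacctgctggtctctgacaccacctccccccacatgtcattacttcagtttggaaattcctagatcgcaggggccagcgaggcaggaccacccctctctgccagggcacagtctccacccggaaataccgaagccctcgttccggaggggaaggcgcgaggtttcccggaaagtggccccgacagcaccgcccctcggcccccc

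Windows were matched for 7 of the 10 genes, 10 windows in all with their alternative starts. Of these, 6 windows, at 4 genes (Nfkb2, Nfkbia, Tnfaip3 and Tnfaip2), held at least 1 match to the consensus, against 7.25% of 32851 windows of the same length. The genes were chosen as known subunits and targets of NF-kappaB, so no conclusion on these data is drawn from that count. It also includes the windows of the later Nfkb2 starts, which overlap. The Nfkb2 run holds matches at 3 positions, beginning 39, 38 and 11 bases before the start, of which the first pair overlap. Nfkbia held 1, beginning 29 bases before its start, and Tnfaip3 held 2, beginning 125 and 12 bases before its start. No match was found in the windows of Rela, Birc3 and Icam1, which says only that these letters are not in these windows. The narrower site of the kappa light chain enhancer was in 0.14% of windows and among these genes in that of the most downstream Nfkb2 start alone.

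Nfkbia was by far the most abundant of the 10 genes, with a mean of 1074 RPKM over the 11 libraries, and Tnfaip2 the least, with 8.12 RPKM. Between them, in falling order of the mean level, stood Rela (365), Nfkbiz (175), Birc3 (139), Nfkb2 (95.3), Tnfaip3 (82.4), Icam1 (77.4), Relb (75.5) and Nfkb1 (34.9). The ranges over libraries overlapped between neighbours in this order except between Nfkbia and Rela, Rela and Nfkbiz, and Nfkb1 and Tnfaip2. Rela stood above the other 3 subunit genes in every library.

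**Figure D1:**
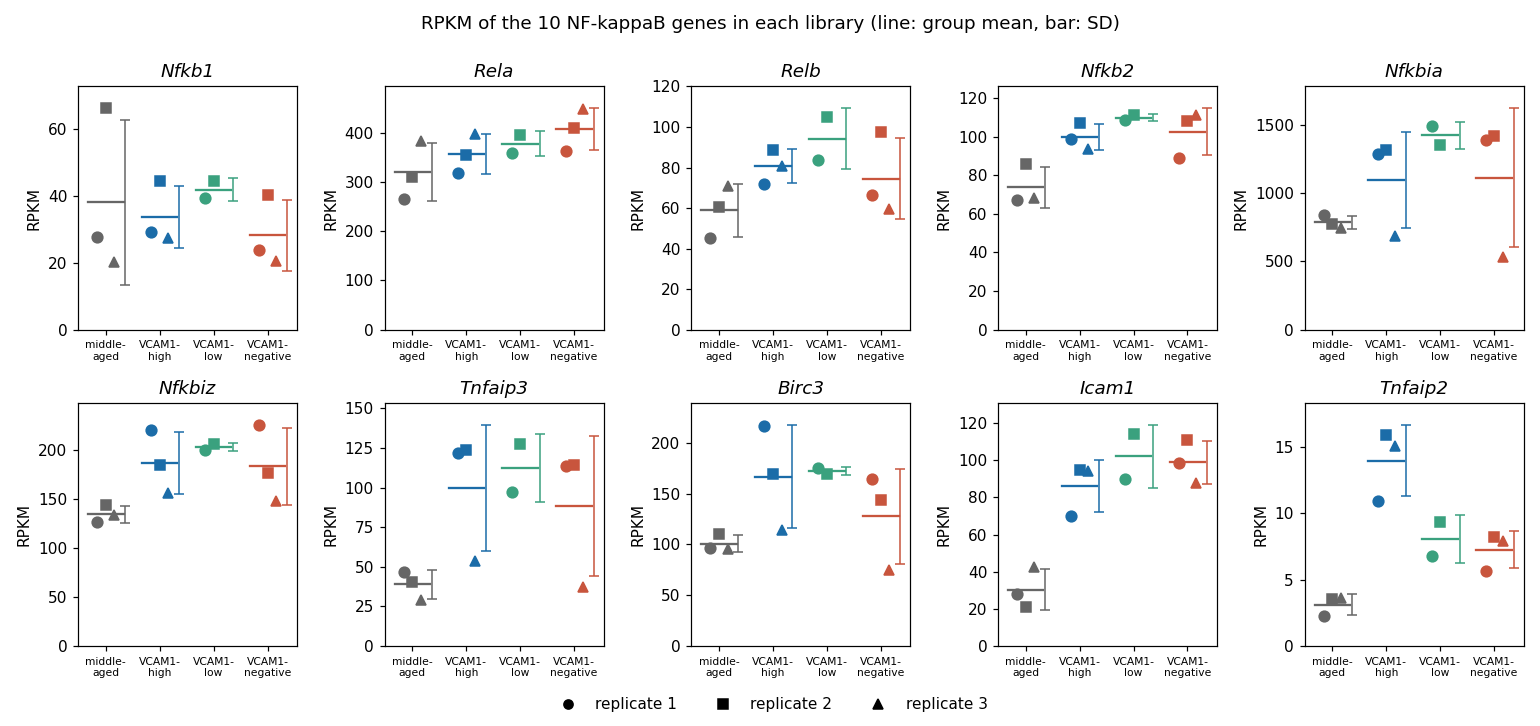
Level of each of the 10 genes in RPKM (vertical axes, each from 0) in the 11 libraries, by group (horizontal axis), with symbols for the replicate number, a line for the group mean and a bar for the SD. Every geriatric library lies above every middle-aged library for Nfkb2, Nfkbiz, Icam1 and Tnfaip2, and the number-3 libraries lie low for Nfkbia, Tnfaip3, Birc3 and Nfkbiz.

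Against the middle-aged libraries, 4 of the 10 genes rose over the mean of the 3 geriatric gates (Icam1, Tnfaip2, Tnfaip3 and Nfkb2) and none fell. Over all 11568 genes tested, 8.04% rose in the same comparison and 15.8% changed in either direction. A gene was called where its adjusted p was under 0.05 in limma, with Benjamini-Hochberg adjustment over all genes tested. The median log2 fold change of the 10 genes was 0.52, against -0.0059 over all genes. All 8 geriatric libraries lay above all 3 middle-aged ones for 4 genes, Nfkb2, Nfkbiz, Icam1 and Tnfaip2, as they did for 9.04% of all genes. Fold changes are differences of log2(RPKM + 1), a scale that understates the change of genes at low levels.

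**Figure D2:**
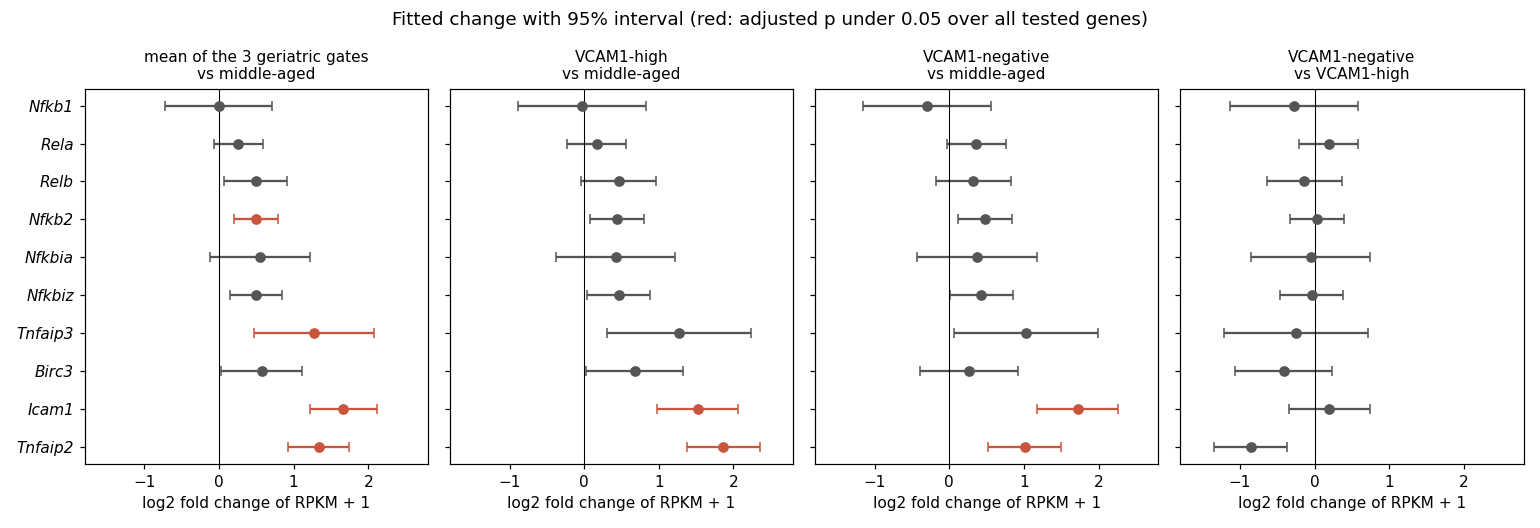
Fitted log2 fold change of RPKM + 1 (horizontal axes) with its 95% interval for each gene (vertical axis) in 4 comparisons, in red where the adjusted p was under 0.05. Icam1 and Tnfaip2 are red in all 3 comparisons with the middle-aged group, Nfkb2 and Tnfaip3 in the mean of the gates alone, and no gene is red between VCAM1-negative and VCAM1-high.

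Of the 4 subunit genes, Nfkb2 rose over the mean of the gates and the other 3 did not pass. With the replicate number as a block, Rela and Relb passed too, in a fit where 8 of the 10 genes and 14.4% of all genes rose. That fit treats same-numbered libraries as pairs, though VCAM1-low and VCAM1-negative numbers paired weakly or not with the middle-aged ones. Nfkb2, which encodes the p100 precursor of p52, read 67.4, 85.8 and 68.0 RPKM in the middle-aged libraries. It read 98.7, 107 and 93.8 in VCAM1-high libraries, 109 and 111 in the VCAM1-low and 88.8, 108 and 111 in the VCAM1-negative ones. The lowest geriatric library was just above the highest middle-aged one. The rise over the mean of the gates was 0.50 ± 0.14 on the log2 scale (SE, adjusted p = 0.0343), which is 1.41 times the middle-aged mean. It passed in none of the 3 gates alone, where the adjusted p was 0.243 (VCAM1-high), 0.0873 (low) and 0.0734 (negative). The call over the mean rested on single libraries, with an adjusted p of 0.125 without middle-aged number 1, 0.128 without middle-aged number 3, 0.0501 and 0.0607 without VCAM1-high number 1 or 2, 0.0788 without VCAM1-low number 2 and 0.0595 without VCAM1-negative number 2.

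Relb, the partner of p52 in the alternative route, read 45.1, 60.7 and 71.1 RPKM in middle-aged libraries and between 59.6 and 105 in geriatric ones, with a median of 82.4. The groups overlapped, since VCAM1-negative numbers 1 and 3 fell within the middle-aged range. The fitted difference was 0.49 ± 0.19 (adjusted p = 0.0989), and it passed with the replicate block (0.49, adjusted p = 0.0339). Rela, the main activating subunit of the canonical route, read 266, 312 and 384 RPKM in middle-aged and between 319 and 449 across geriatric libraries. Its difference of 0.26 ± 0.15 did not pass (adjusted p = 0.240, 95% interval -0.07 to 0.59) and was 0.29 with the block, where it passed (adjusted p = 0.0453).

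Nfkb1, the source of p50, varied between libraries more than between groups. It read 27.7, 66.3 and 20.4 RPKM in the middle-aged libraries, 29.3, 44.4 and 27.4 in VCAM1-high libraries, 39.5 and 44.5 in the VCAM1-low and 23.8, 40.3 and 20.6 in the VCAM1-negative ones. The number-2 library was the highest in each of the 4 groups, and middle-aged number 2 was the highest of all. No difference was detected over the mean of the gates (-0.0060 ± 0.33, adjusted p = 0.992), and the interval of -0.72 to 0.71 allows changes of some size in either direction. Without middle-aged number 2 the difference was 0.47 (adjusted p = 0.249).

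Nfkbia encodes IkB-alpha, which captures the nuclear dimer and returns it to the cytoplasm, and its gene is among the fastest to respond to NF-kappaB. It read 838, 775 and 741 RPKM in the middle-aged libraries. It read 1282, 1311 and 687 in VCAM1-high libraries, 1492 and 1350 in the VCAM1-low and 1389, 1419 and 527 in the VCAM1-negative ones. The 6 geriatric libraries numbered 1 or 2 lay above all middle-aged ones, and both geriatric number-3 libraries lay below all middle-aged ones. Over all libraries the difference did not pass (0.55 ± 0.30, adjusted p = 0.222).

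Tnfaip3 encodes A20, an enzyme that edits ubiquitin chains and so shuts down signalling between receptor and IKK. It read 47.0, 40.5 and 29.2 RPKM in the middle-aged libraries. It read 122, 124 and 54.0 in VCAM1-high libraries, 97.4 and 128 in the VCAM1-low and 114, 114 and 37.0 in the VCAM1-negative ones. All geriatric libraries but VCAM1-negative number 3 lay above the middle-aged ones. Tnfaip3 rose over the mean of the gates by 1.27 ± 0.37 (adjusted p = 0.0403), which is 2.58 times the middle-aged mean. The adjusted p was above 0.05 when any of 8 libraries was left out, at 0.0891, 0.0858 and 0.139 without middle-aged number 1, 2 or 3, 0.0577 and 0.0669 without VCAM1-high number 1 or 2, 0.0969 without VCAM1-low number 2, and 0.0551 and 0.0613 without VCAM1-negative number 1 or 2. It was 0.0863 with no filter on low values. In VCAM1-high alone the difference of 1.27 ± 0.44 did not pass (adjusted p = 0.213), and it passed with the replicate number as a block (adjusted p = 0.0153), a fit in which 6.98% of all genes passed.

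Birc3 encodes cIAP2, a ubiquitin ligase that works at the TNF receptor complex and protects cells from death. It read 96.7, 111 and 95.4 RPKM in the middle-aged libraries, 216, 170 and 115 in VCAM1-high libraries, 175 and 170 in the VCAM1-low and 165, 144 and 74.9 in the VCAM1-negative ones. The single geriatric library below the middle-aged range was VCAM1-negative number 3. The difference over the mean of the gates was 0.57 ± 0.25 (adjusted p = 0.130), and 0.50 with the replicate block, where it passed (adjusted p = 0.0464). Nfkbiz encodes IkB-zeta, a nuclear IkB protein that helps p50 act on a subset of genes. It read 126, 144 and 134 RPKM in middle-aged libraries, and 221, 185 and 156 in VCAM1-high libraries, 201 and 206 in the VCAM1-low and 226, 177 and 149 in the VCAM1-negative ones. Although the groups did not overlap, the difference of 0.49 ± 0.16 did not pass (adjusted p = 0.0574). It was 0.46 with the block and passed (adjusted p = 0.0245).

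The same 4 genes, Nfkbia, Tnfaip3, Birc3 and Nfkbiz, had both geriatric number-3 libraries below the other 6 geriatric libraries. Of all genes tested, 8.32% did so, and 15.9% had both above. For Nfkbia the number-3 libraries were at 0.672 and 0.875 times the middle-aged mean, while the other 6 ranged from 1.63 to 1.90 times. For Tnfaip3 the ratios were 0.952 and 1.39 against 2.50 to 3.28, and for Birc3 0.742 and 1.14 against 1.42 to 2.14. For Nfkbiz they were closer, at 1.10 and 1.16 against 1.31 to 1.68. Icam1, Tnfaip2 and Nfkb2 did not share this split. The number-3 ratios were 2.88 and 3.09 for Icam1, within the 2.31 to 3.75 of the other libraries, and 2.54 and 4.84 for Tnfaip2, within 1.82 to 5.10. For Nfkb2 they were 1.27 and 1.51, against 1.20 to 1.51. There VCAM1-negative number 3 was the highest by a very small margin (110.99 RPKM against 110.986 in VCAM1-low number 2).

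**Figure D3:**
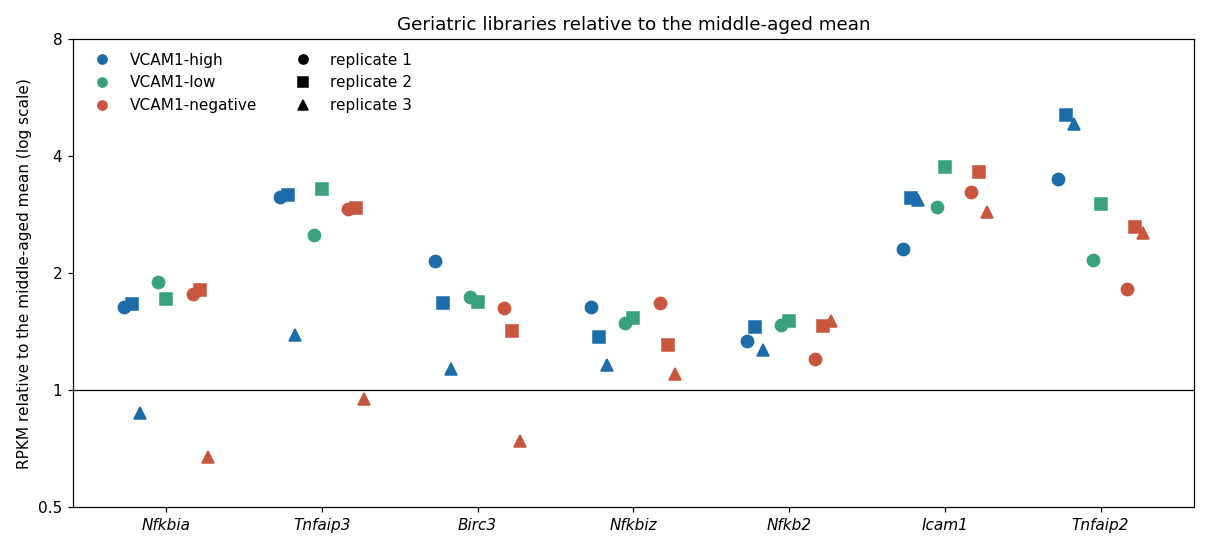
RPKM of 7 genes (horizontal axis) in the 8 geriatric libraries divided by the middle-aged mean (vertical axis, log scale), with colours for the gates and symbols for the replicate number. The triangles, for the number-3 libraries, lie below all other points for Nfkbia, Tnfaip3, Birc3 and Nfkbiz, and among them for Icam1 and Tnfaip2. For Nfkb2, that of VCAM1-high lies among the other points and that of VCAM1-negative about level with the highest of them.

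With all number-3 libraries left out, 3 of which exist, 5 of the 10 genes rose over the mean of the gates, as did 5.42% of all genes in that fit. Nfkbia then rose by 0.77 (adjusted p = 0.0169), Tnfaip3 by 1.39 (adjusted p = 0.00517) and Birc3 by 0.73 (adjusted p = 0.0350), while Icam1 and Tnfaip2 stayed above the middle-aged libraries and Nfkb2 no longer passed (0.44, adjusted p = 0.132). Without VCAM1-negative number 3 alone, 7 of the 10 genes and 6.91% of all genes rose, and the adjusted p was 0.0455 for Nfkbia, 0.0417 for Birc3 and 0.0429 for Nfkbiz. The geriatric libraries left out are the lowest for Nfkbia, Tnfaip3, Birc3 and Nfkbiz, so larger rises without them follow from the choice. For these genes the adjusted p-values of both fits describe the libraries kept and are not independent support for a rise. The number-3 library of VCAM1-high held the highest macrophage sum (979) and that of VCAM1-negative the next (248), with 4 neutrophil markers summing to 47.1 and 15.8 against 1.96 to 8.41 in the other geriatric libraries. The sum of 7 immediate early genes, which respond to tissue dissociation, was 14822 and 14891 in these 2 libraries and 15473 to 24176 in the other 6. Both values lay within the 13011 to 16658 of the middle-aged libraries, as did those of VCAM1-high numbers 1 and 2 (15473 and 16202). The part of these differences in the low values of the 4 genes was not tested.

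Icam1 had the largest fitted rise of the 10 genes over the mean of the gates. It encodes the adhesion molecule that leukocytes grip through integrins, is a classic target of NF-kappaB, and is known from endothelial and many activated cells. It read 28.1, 20.9 and 42.3 RPKM in the middle-aged libraries. It read 70.2, 94.9 and 94.0 in VCAM1-high libraries, 90.1 and 114 in the VCAM1-low and 98.5, 111 and 87.6 in the VCAM1-negative ones. All 8 geriatric libraries were at least 70.2 RPKM, well clear of the highest middle-aged one. The mean was 30.4 ± 10.9 RPKM in middle-aged (SD, n = 3) and 86.4 ± 14.0 in VCAM1-high (SD, n = 3), 102 ± 16.9 in VCAM1-low (SD, n = 2) and 98.9 ± 11.5 in VCAM1-negative libraries (SD, n = 3). The rise was 1.67 ± 0.21 over the mean of the gates (adjusted p = 0.00180), or 3.15 times the middle-aged mean, and it passed in all 21 alternative settings.

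Tnfaip2 encodes an exocyst-related protein that shapes membrane protrusions and is switched on by TNF. It read 2.23, 3.53 and 3.60 RPKM in the middle-aged libraries. It read 10.9, 15.9 and 15.1 in VCAM1-high libraries, 6.77 and 9.37 in the VCAM1-low and 5.68, 8.22 and 7.93 in the VCAM1-negative ones. Every geriatric library was above every middle-aged one, and the VCAM1-high libraries were above all others. The mean was 3.12 ± 0.770 RPKM in middle-aged (SD, n = 3), 14.0 ± 2.69 in VCAM1-high (SD, n = 3), 8.07 ± 1.84 in VCAM1-low (SD, n = 2) and 7.28 ± 1.39 in VCAM1-negative (SD, n = 3). The rise was 1.34 ± 0.19 over the mean of the gates (adjusted p = 0.00303), or 3.13 times the middle-aged mean, and it passed in all 21 alternative settings.

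Within the gates, Icam1 and Tnfaip2 were the genes that passed against the middle-aged group, in each of the 3 gates, and the other 8 did not. In VCAM1-high, Icam1 rose by 1.52 ± 0.25 (adjusted p = 0.0266) and Tnfaip2 by 1.86 ± 0.22 (adjusted p = 0.00535), where 0.475% of all genes rose. In VCAM1-negative, Icam1 rose by 1.72 ± 0.25 (adjusted p = 0.00432) and Tnfaip2 by 1.01 ± 0.22 (adjusted p = 0.0192), where 7.06% rose. In VCAM1-low, Icam1 rose by 1.76 ± 0.28 (adjusted p = 0.0139) and Tnfaip2 by 1.14 ± 0.25 (adjusted p = 0.0381), where 2.22% rose. The 3 comparisons share the middle-aged libraries and are not independent of each other. Tnfaip2 in VCAM1-high and Icam1 in VCAM1-negative passed whichever library was left out.

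The other calls by gate rested on single libraries. Icam1 in VCAM1-high had an adjusted p of 0.0922 and 0.0736 without middle-aged number 1 or 2, 0.151 without VCAM1-high number 2 and 0.0522 without VCAM1-negative number 3, and of 0.137 in a fit to the 6 libraries compared. Tnfaip2 in VCAM1-negative had 0.0654 without middle-aged number 1, and 0.0778 and 0.0535 without VCAM1-negative number 2 or 3. VCAM1-low has 2 libraries, so leaving out either leaves a single one, which is assumed to vary as the other groups do. Icam1 in VCAM1-low then had a log2 fold change of 1.93 and 1.59 without number 1 or 2 of that gate (adjusted p = 0.0640 and 0.207), against 1.76 with both. Tnfaip2 there had 1.35 and 0.93 in the same omissions (adjusted p = 0.0715 and 0.350), against 1.14 with both. Its adjusted p was 0.0956, 0.0599 and 0.0628 without middle-aged number 1, 2 or 3.

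Endothelial cells and leukocytes also express Icam1 and Tnfaip2, so the sums of their markers are given beside these rises. The endothelial sum (19.3 to 312 in middle-aged and 17.6 to 157 across geriatric libraries) and the macrophage sum (23.7 to 163 and 33.1 to 979) overlapped between the age groups. The sums of 4 neutrophil markers (at most 0.737 in middle-aged and 1.96 to 47.1 across geriatric libraries) and of 4 T and B cell markers (1.12 to 3.39 and 4.77 to 8.17) did not overlap between the age groups, and were higher in the geriatric libraries. No marker of these 4 lists was at 0 in all libraries, though the 4 neutrophil markers were at 0 in middle-aged numbers 1 and 2, and 3 of the 4 T and B cell markers stayed under 1 RPKM in every library. The part of any of these cell types in the rises was not tested.

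Between the gates of geriatric mice, none of the 10 genes changed in the limma fit without the replicate block. Same-numbered libraries of these gates deviated together, and with the block Tnfaip2 passed in VCAM1-negative against VCAM1-high, as given below. Without the block, VCAM1-negative against VCAM1-high gave no call among all 11568 genes (0.0%), with 755 genes and 1 of the 10 (Tnfaip2) at an unadjusted p under 0.05. VCAM1-low against VCAM1-high gave none either (0.0%), with 337 genes and Tnfaip2 under that limit, nor did VCAM1-negative against VCAM1-low (0.0%), with 217 genes and none of the 10. The lowest adjusted p in VCAM1-negative against VCAM1-high was 0.0501, so the lack of calls sits at the limit. In that comparison 0.19% of all genes passed with a pseudocount of 0.1 and 1.11% without VCAM1-negative number 1. None passed in a fit to the groups compared. The intervals allow moderate differences, such as -0.34 to 0.74 for Icam1, -0.20 to 0.58 for Rela and -0.85 to 0.75 for Nfkbia in VCAM1-negative against VCAM1-high.

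The VCAM1-negative libraries also held more myofibre RNA, with 10 markers summing to 652 to 6706 RPKM. The sums were 54.9 to 128 in VCAM1-high and 142 to 303 in middle-aged libraries. The part of this RNA was not tested, either between the gates or in the comparisons with middle-aged that include VCAM1-negative.

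Tnfaip2 was the gene of the 10 that came nearest to a difference between gates. VCAM1-negative libraries had 0.520 times the VCAM1-high level, a log2 difference of -0.85 ± 0.22 (adjusted p = 0.294, unadjusted p = 0.00279). The libraries did not overlap, as was the case in this direction for 8.08% of all genes. Within numbers 1 and 2 the level was highest in VCAM1-high, then VCAM1-low, then VCAM1-negative, and within number 3 it was higher in VCAM1-high than in VCAM1-negative. With the replicate number as a block Tnfaip2 passed, at an adjusted p of 0.0265 in the fit to 11 libraries, where 0.562% of genes passed, and 0.0136 in the fit to the 8 geriatric libraries, where 4.42% of 11325 did. Icam1, by contrast, was not lower in VCAM1-negative cells in value (98.9 against 86.4 RPKM), and whether the difference between gates differs between the 2 genes was not tested.

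The rest of the pathway was read from 6 further lists of genes, by the same limit over the mean of the gates. Over all genes tested, 8.04% rose and 7.81% fell in this comparison, the shares to set beside each count below. Of 5 other Rel and IkB family genes, 3 rose and none fell. Nfkbib, which encodes IkB-beta, read 77.8, 72.3 and 70.1 RPKM in middle-aged libraries and 88.5 to 157 in geriatric ones (0.66 ± 0.17, adjusted p = 0.0273). Nfkbie, which encodes IkB-epsilon, rose by 0.84 ± 0.24 (adjusted p = 0.0365). Bcl3, a nuclear IkB protein that partners with p50 and p52, read 342, 368 and 364 and then 418 to 605 RPKM (0.49 ± 0.15, adjusted p = 0.0472). Nfkbib and Bcl3 were above the middle-aged libraries in all 8 geriatric ones, as were 9.04% of all genes. The call for Nfkbib was lost without middle-aged number 1, 2 or 3 or VCAM1-low number 2 (adjusted p = 0.0750, 0.0713, 0.0943 and 0.0698). Of the 11 omissions of 1 library, Nfkbie passed in those of middle-aged number 2 and of VCAM1-high and VCAM1-negative number 3, with an adjusted p of up to 0.141 in the others. Bcl3 passed in those of VCAM1-high number 3, VCAM1-low number 1 and VCAM1-negative number 1, with up to 0.144 in the others.

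Of 24 tested genes for the IKK complex and its adaptors, 6 rose and 2 fell. Myd88, the adaptor of Toll-like and interleukin-1 receptors, read 288, 287 and 295 RPKM in the middle-aged libraries. It read 514, 593 and 403 in VCAM1-high libraries, 555 and 639 in the VCAM1-low and 539, 613 and 700 in the VCAM1-negative ones. All geriatric libraries lay above the middle-aged ones, and the rise was 0.96 ± 0.15 (adjusted p = 0.00468). Map3k14 encodes NIK, the kinase that starts the alternative route and the processing of p100. It read 12.3, 7.84 and 5.65 RPKM in middle-aged and 13.3 to 30.9 across geriatric libraries, and rose by 1.42 ± 0.25 (adjusted p = 0.00720). Rnf31, the catalytic subunit of the linear ubiquitin ligase, read 13.8, 14.9 and 17.8 and then 23.9 to 42.5 RPKM (0.97 ± 0.17, adjusted p = 0.00757). Myd88, Map3k14 and Rnf31 passed in all 21 alternative settings. Ikbke, which encodes a kinase related to IKK, was low and fell from a middle-aged mean of 2.41 RPKM to 0.303 to 2.45 RPKM across geriatric libraries (-0.87 ± 0.21, adjusted p = 0.0224), a call lost without middle-aged number 1 or 3 or VCAM1-low number 2 (adjusted p = 0.0889, 0.0792 and 0.0615).

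Of 9 tested receptor genes, 2 rose and none fell. Tnfrsf1b, which encodes TNF receptor 2, read 2.42, 3.21 and 4.50 RPKM in middle-aged and 6.45 to 11.5 across geriatric libraries, and rose by 1.03 ± 0.19 (adjusted p = 0.00908) in all 21 settings. Tlr2, a receptor for bacterial lipoproteins, rose by 1.17 ± 0.33 (adjusted p = 0.0388) and had its highest level of 15.9 RPKM in VCAM1-high number 3. Its call was lost without middle-aged number 1 or 2 (adjusted p = 0.119 and 0.138), VCAM1-high number 2 (0.0501), VCAM1-low number 2 (0.0985) or VCAM1-negative number 2 or 3 (0.0583 and 0.0505). Of 10 listed ligands 5 were tested, and Il33 rose. Il33 encodes an alarmin of the interleukin-1 family that is held in the nucleus and released from damaged cells. It read 1.94, 3.30 and 5.71 RPKM in the middle-aged libraries, and 22.2, 13.2 and 14.5 in VCAM1-high libraries, 15.6 and 11.1 in the VCAM1-low and 15.2, 11.2 and 5.67 in the VCAM1-negative ones. All geriatric libraries but VCAM1-negative number 3 were above the middle-aged ones, and Il33 rose by 1.66 ± 0.31 (adjusted p = 0.00916), again in all 21 settings. Tnf and Il1b, the best-known inducers of the pathway, were looked at after their values were seen. Both were highest in VCAM1-high number 3, at 10.2 and 38.0 RPKM, the library with the highest macrophage sum, and neither passed (adjusted p = 0.718 and 0.3996).

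Of 9 other genes for brakes on the pathway, 4 rose and 1 fell. Zc3h12a encodes Regnase-1, which cuts inflammatory messenger RNAs, and it read 26.9, 29.4 and 15.1 RPKM in middle-aged and 24.8 to 77.6 across geriatric libraries (1.30 ± 0.29, adjusted p = 0.0177). Its lowest geriatric value was again that of VCAM1-high number 3, within the middle-aged range. Tnip1, which encodes a partner of A20, rose by 0.72 ± 0.18 (adjusted p = 0.0230), and Otud7b, which encodes a deubiquitinase known as Cezanne, by 0.46 ± 0.13 (adjusted p = 0.0394). Commd1, which encodes a protein that promotes the removal of RelA from chromatin, went the other way. It read 91.7, 52.1 and 55.3 RPKM in middle-aged and 13.6 to 49.2 across geriatric libraries, a fall with no overlap (-1.33 ± 0.32, adjusted p = 0.0215). Of all genes, 4.95% were lower with no overlap. The calls for Zc3h12a and Tnip1 were lost without middle-aged number 1 (adjusted p = 0.0516 and 0.0700) or 3 (0.0770 and 0.104). That for Commd1 was lost without middle-aged number 1 or 3 or VCAM1-low number 2 (0.104, 0.0559 and 0.0509). Otud7b passed in the omissions of VCAM1-high number 3 and VCAM1-low number 1, with an adjusted p of up to 0.116 in the others.

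Of 19 tested genes among the other targets, 3 rose and none fell. Csf1, which encodes the growth factor of macrophages, read 12.8, 13.5 and 11.4 RPKM in middle-aged and 19.4 to 37.4 across geriatric libraries (1.06 ± 0.24, adjusted p = 0.0179). Irf1, an interferon-response factor, rose by 0.60 ± 0.15 (adjusted p = 0.0257). Sod2, the mitochondrial superoxide dismutase, rose by 1.03 ± 0.32 (adjusted p = 0.0489). It had the pattern of Nfkbia, with 30.2 and 29.8 RPKM in the geriatric number-3 libraries, 62.0 to 84.2 in the other 6 and 24.1 to 32.2 in the middle-aged ones. The call for Csf1 was lost without middle-aged number 1 or 3 (adjusted p = 0.0652 and 0.0683), and that for Irf1 without middle-aged number 1, 2 or 3 or VCAM1-low number 2 (0.0592, 0.0949, 0.0603 and 0.0699). Sod2 passed in the omissions of VCAM1-high and VCAM1-negative number 3, with an adjusted p of up to 0.156 in the others. Cxcl2, which encodes a neutrophil chemokine, fell in VCAM1-negative against middle-aged (-1.04 ± 0.31, adjusted p = 0.0477) and did not pass over the mean of the gates (-0.53 ± 0.26, adjusted p = 0.170). In VCAM1-high against middle-aged, Tnfrsf1b and Il33 were the genes of the 6 lists that passed (adjusted p = 0.0373 and 0.0413). With the replicate block, the genes changed over the mean of the gates numbered 13 for the IKK complex and adaptors, 4 for the receptors and 7 for the other targets. In that fit, 30.9% of all genes changed. Without the block, no gene of these lists changed between VCAM1-negative and VCAM1-high, and with it these lists were not examined between the gates. Over these lists the median log2 fold change of the mean of the gates against middle-aged ran from 0.14 for the IKK complex and adaptors to 0.81 for the ligands. It was 0.52 for the 10 genes.

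**Figure D4:**
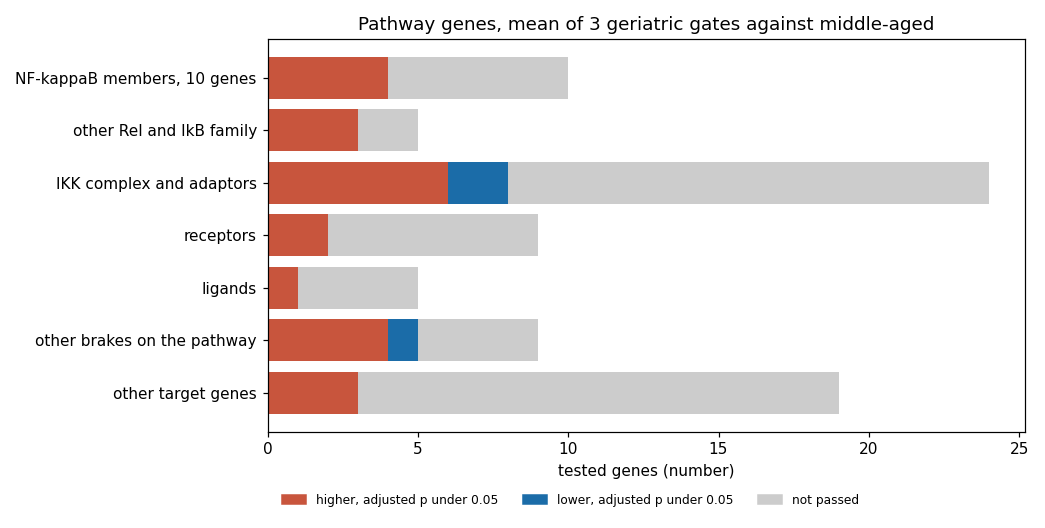
Number of tested genes (horizontal axis) in each list (vertical axis) that rose, fell or did not pass over the mean of the 3 geriatric gates against middle-aged. Of the 10 genes 4 rose, and the lists with a fall are those of the IKK complex and adaptors (2) and of other brakes (1). Of all genes tested, 8.04% rose and 7.81% fell.

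The genes whose levels ran most like Nfkbia over the 11 libraries were found by the Pearson correlation of log2(RPKM + 1), as a description over libraries that share the number-3 split. They were the small heat shock gene Hspb1 (r = 0.95), the monocyte chemokine gene Ccl2 (0.94), the histone gene H2bc4 (0.94), Ccdc84 (0.93) and the mitochondrial ribosomal gene Mrps6 (0.93). Hspb1 read 138 and 168 RPKM in the geriatric number-3 libraries and 791 to 1919 in the other 6. Ccl2 read 303, 304 and 203 RPKM in middle-aged libraries, 255 and 167 in the geriatric number-3 libraries and 525 to 880 in the other 6. The genes most like Nfkb2 were Tent5a (0.96), Pth1r (0.96), Trim39 (0.96), Prodh (0.95) and Igf2bp2 (0.95). Tent5a ran from 3.83 to 5.55 RPKM at middle age and from 9.26 to 14.6 across geriatric libraries, with no overlap.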

How the data were processed

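Bulk RNA was measured in 11 libraries of 4 groups, taken from the labels. The authors deposited RPKM values for 20640 gene symbols, and no counts were used here. Build GRCm39 and the tools STAR 2.7.5b, SAMtools 0.1.19, Bowtie2 2.1.0 and cutadapt 3.1 are listed in the submitters' processing notes. Per the labels' protocols, the library kit was SMART-Seq v4. The read counter, annotation and gene lengths were not given in the sources used here. Depth was estimated from the steps that single reads make among values of at most 0.1 RPKM, over 3428 single-transcript genes. At the lowest depth, 1 read in 1 kb is 0.0503 RPKM.

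The 11568 genes that reached 1 RPKM in at least 2 libraries were fitted on the log2(RPKM + 1) scale by limma 3.58.1 (R 4.3.3). The model had 4 group means over all 11 libraries and a variance trend. The Benjamini-Hochberg adjustment ran over all genes tested in each of 7 comparisons. The model was also run on simulated data with independent libraries, which does not cover shared deviations between libraries of the same number. The 10 genes and the lists were chosen with earlier results of these data known. Of the lists, up to 4 genes with the smallest adjusted p under 0.05 over the mean of the gates are named, and for Nfkbia and Nfkb2 the 5 genes most like them. For single gates against middle-aged, only the calls of the lists in VCAM1-high and that of Cxcl2 in VCAM1-negative are given. Others, such as Tnip2 in VCAM1-negative, are left out. Samples with the same replicate number deviated together between VCAM1-high and VCAM1-negative (correlations over genes of 0.41, 0.58 and 0.40) and between VCAM1-high and middle-aged (0.21, 0.33 and 0.55), so these numbers were taken as pairs from the data, since the labels do not state a shared animal or day. Between VCAM1-negative and middle-aged they did not (-0.025, 0.033 and 0.081), and between VCAM1-low and middle-aged they did so weakly or not (0.15 and 0.032). The alternatives were 22 settings.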

Additional observations from a re-analysis of the deposited data

How the results depend on the processing

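The counts of the 10 genes that changed, all of them higher against middle-aged, moved as follows, with the share of all genes that rose in the same fit in brackets. VCAM1-high had 2 and gave 1 with no filter on low values (0.0812%) and 1 in a fit to the groups compared (0.107%), with 1 to 2 when single libraries were left out (0.13% to 1.38%). VCAM1-low had 2 and gave 1 with no filter (0.379%), 4 in a fit to the groups compared (2.98%), 1 without middle-aged and VCAM1-high number 3 (1.95%), and 0 to 2 without single libraries (0.00866% to 3.43%). VCAM1-negative had 2, with 1 to 2 without single libraries (1.88% to 7.68%). The mean of the gates had 4 and gave 2 without middle-aged and VCAM1-high number 3 (5.39%), and 2 to 7 without single libraries (2.78% to 9.6%).

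With the replicate block in the fit to 11 libraries, the count against middle-aged was 4 in VCAM1-low (6.28% of all genes then rose), 5 in VCAM1-negative (14.3%) and 8 in the mean of the gates (14.4%), and it was 1 in VCAM1-negative against VCAM1-high. Beside Icam1 and Tnfaip2 these were Nfkb2 and Tnfaip3 in VCAM1-low (adjusted p = 0.0369 and 0.0169), and Nfkb2, Rela and Tnfaip3 in VCAM1-negative (0.0250, 0.0410 and 0.00785). The numbers of VCAM1-negative did not pair with the middle-aged ones, and those of VCAM1-low did so weakly or not (correlations of 0.15 and 0.032). The block calls in these gates and in the mean of the gates carry this limit. The replicate block in the 8 geriatric libraries gave 1 in that last comparison between gates. The block changed no other count of the 10 genes by over 1.5 times.

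Directions turned for genes that did not pass. Against middle-aged, Nfkb1 in VCAM1-high was -0.028 and became 0.0045 when rescaled to the same sum, with -0.37 to 0.45 without single libraries. Nfkb1 in VCAM1-negative ranged from -0.65 to 0.18 without single libraries. Over the mean of the gates Nfkb1 became 0.024 when rescaled to the same sum and 0.0062 when rescaled by the median ratio, with -0.35 to 0.47 without single libraries. In VCAM1-negative against VCAM1-high, Nfkb2 became -0.011 without middle-aged and VCAM1-high number 3 and -0.070 without all number-3 libraries, with -0.027 to 0.13 without single libraries. Nfkbia became 0.036 when rescaled by the median ratio and 0.11 without all number-3 libraries, with -0.36 to 0.42 without single libraries. Nfkbiz became 0.052 when rescaled by the median ratio, with -0.19 to 0.11 without single libraries, and Relb 0.0085 without all number-3 libraries, with -0.35 to 0.0030. Tnfaip3 ranged from -0.64 to 0.28 without single libraries.

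Over all settings, the genes called in the mean of the gates numbered 3 to 13 for the IKK complex and adaptors, 0 to 7 for other targets, 0 to 6 for other brakes, 0 to 4 for other Rel and IkB genes, 1 to 4 for receptors and 1 to 2 for ligands. Of all genes tested, 4.54% to 30.9% changed in the same settings. The causes were not tested. Depth limits values near or under 1 RPKM, which among the named genes bears on Ikbke, Tnf and Il1b in some libraries.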
